A study of Mus musculus with 9 samples.

Results

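The delta protocadherins followed here were 9 of the 23607 genes in the deposited count tables: Pcdh1, Pcdh7 and Pcdh9 of the delta-1 subgroup, Pcdh8, Pcdh10, Pcdh17, Pcdh18 and Pcdh19 of the delta-2 subgroup, and Pcdh20, a non-clustered relative usually placed outside both. Pcdh10 was chosen by its count, which had been seen to be higher at 100% heptanal than in controls. The other 8 genes were taken by family name. The values of Pcdh10 at 100% heptanal, with its intervals and calls there, are therefore a description and not a test. The question asked was whether Pcdh10 differed alone or together with its relatives. All 9 genes had a row in every table, and 8 of them had enough counts to be tested.

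The data are RNAseq of pS6-IP samples from the olfactory epithelium (OE) of 9 C57BL/6 mice. Ribosomal protein S6 is phosphorylated in activated neurons, so an antibody against phosphorylated S6 (pS6) enriches ribosome-bound mRNA of the olfactory sensory neurons (OSNs) that an odour has activated, while mRNA of other cells remains as background. Each mouse spent 1 hr with distilled water (control, n = 3), with heptanal diluted to 1% (n = 3) or with undiluted heptanal (100%, n = 3), an aldehyde odorant. Each group held 1 mouse of postnatal day 18, 1 of day 21 and 1 of day 22, and the mice of a day were littermates of the same sex according to the methods of the study, which also give an age range that starts above day 18. Age, litter and sex therefore change together between days and cannot be told apart. The sample titles also begin with YJC for the mice of day 22 and with YJE for those of days 18 and 21. What these letters mark is not given in the labels, and it cannot be told apart from day 22 either. The library totals ran from 5438494 to 9707592 estimated counts, with a median of 7305895, and every pair of mice of a group differed by more than sampling noise.

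Delta protocadherins are single-pass membrane proteins of the cadherin superfamily that mediate weak, mostly homophilic adhesion between neurons and regulate axon growth, axon sorting and synapse number. The delta-1 proteins have a longer ectodomain and a cytoplasmic motif that binds protein phosphatase 1, while several delta-2 proteins recruit the WAVE complex, which drives branched actin assembly. Pcdh10, also known as OL-protocadherin, is found at different levels in different OSNs and their glomeruli, and its expression in OSNs is known to depend on neuronal activity. In hippocampal neurons it acts downstream of the MEF2 transcription factors in the removal of excitatory synapses.

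The promoter of Pcdh10 is shown because Pcdh10 is the member that was chosen by its count. Those of Pcdh9 and Pcdh17 are shown because they are the only other members that hold a searched motif of the CREB or EGR families of transcription factors. Pcdh20, which holds a searched MEF2 motif, is described below without its sequence. Each sequence runs from 250 bases before the RefSeq transcription start to 50 bases from it, on the strand of the gene, in build GRCm38.p6. Capitals in Pcdh10 mark TGACG, the half-site of the cAMP response element (CRE), capitals in Pcdh9 mark CGTCA, the same half-site on the opposite strand, and capitals in Pcdh17 mark an EGR match on the opposite strand.
Pcdh10, chr3:45378148-45378447, plus strand: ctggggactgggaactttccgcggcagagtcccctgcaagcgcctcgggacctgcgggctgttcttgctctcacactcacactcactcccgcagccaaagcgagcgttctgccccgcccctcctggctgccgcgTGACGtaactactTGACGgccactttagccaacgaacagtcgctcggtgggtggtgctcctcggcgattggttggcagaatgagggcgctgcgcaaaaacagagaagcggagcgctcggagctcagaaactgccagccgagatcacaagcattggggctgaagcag
Pcdh9, chr14:93890630-93890929, minus strand: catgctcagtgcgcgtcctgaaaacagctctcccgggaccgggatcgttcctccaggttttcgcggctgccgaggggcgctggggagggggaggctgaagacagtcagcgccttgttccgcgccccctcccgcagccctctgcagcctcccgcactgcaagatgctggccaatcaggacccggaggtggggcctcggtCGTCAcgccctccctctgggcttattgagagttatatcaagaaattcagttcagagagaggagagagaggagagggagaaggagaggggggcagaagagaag
Pcdh17, chr14:84443313-84443612, plus strand: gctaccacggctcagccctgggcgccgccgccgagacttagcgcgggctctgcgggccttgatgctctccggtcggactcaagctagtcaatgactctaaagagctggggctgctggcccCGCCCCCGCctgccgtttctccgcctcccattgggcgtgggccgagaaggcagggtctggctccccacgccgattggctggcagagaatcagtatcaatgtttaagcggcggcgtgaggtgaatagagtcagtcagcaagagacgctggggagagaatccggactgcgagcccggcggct

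The half-site TGACG, searched on both strands, lay at positions -116 and -103 of the Pcdh10 window relative to the start, both on the strand of the gene. At least 1 half-site was present in 20.8% of the 32851 mouse promoter windows of this length, and at least 2 in 5.01%, where a full CRE counts as 2. Among the 8 members with a window, the half-site was found in Pcdh10 and Pcdh9 alone. In Pcdh9 it lay at position -52 or -62, according to which of the annotated starts is taken. The full CRE, TGACGTCA, which contains the half-site, was present in 1.79% of all windows, the AP-1 site TGANTCA in 7.81%, the CArG box of serum response factor in 1.63% and the NR4A site AAAGGTCA in 1.51%, each searched on both strands, and none of the 8 members held any of them. The EGR site GCGNGGGCG, in 5.55% of all windows, matched in Pcdh17 at position -130. The MEF2 site, in 3.19%, matched in Pcdh20 at position -238, and TATAAA, in 13.6%, matched in Pcdh8 at position -30. The Pcdh10 window was 62.3% G or C with 24 CG pairs, against medians of 52.7% and 7 over all windows, and the Pcdh17 window was 65.0% G or C with 26 CG pairs. Of all windows, 76.2% had a lower G or C content than that of Pcdh10 and 80.0% had fewer CG pairs. Other members were above both medians too, namely Pcdh19 (67.7%, 18 pairs), Pcdh18 (63.0%, 23), Pcdh9 as shown (62.7%, 18), Pcdh7 (59.3%, 11) and Pcdh8 (54.3%, 14). Pcdh20 (43.7%, 4) was below both.

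Pcdh10 lies on chromosome 3 (GRCm38, 45378398 to 45435623, plus strand) and has 5 exons in its longest coding transcript, of which the largest holds 82.97% of the coding sequence. It had 257, 390 and 249 counts in the control mice of days 18, 21 and 22. The 1% heptanal mice had 547, 289 and 374 counts, and the 100% heptanal mice had 2274, 2010 and 2202. Scaled to the TMM-normalized library size and given as CPM, the control levels were 32.5, 55.0 and 38.6, the 1% levels 53.8, 50.2 and 55.1, and the 100% levels 259, 282 and 252, in the same order of days. The 3 mice at 100% heptanal lay apart from the other 6, and the lowest of them was above 4 times the highest of the rest. Control mice averaged 42.0 ± 11.6 CPM, mice given 1% heptanal 53.1 ± 2.56, and those given 100% heptanal 264 ± 15.8 (SD over 3 mice).

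Within a day, Pcdh10 was 7.97 times the control level at 100% heptanal on day 18, 5.13 times on day 21 and 6.53 times on day 22. Set against the 1% mice of the same day, the ratios at 100% heptanal were 4.81, 5.61 and 4.56. The fitted log2 fold change at 100% heptanal against control was 2.67 (SE 0.18, 95% interval 2.25 to 3.09), and against 1% heptanal it was 2.31 (SE 0.18, 95% interval 1.90 to 2.72). The 2 comparisons share the 100% heptanal mice, on which Pcdh10 was chosen, so these intervals are no test of it. Leaving out any 1 mouse gave 2.51 to 2.90 against control, although without the control mouse of day 22, where the value was 2.63, Pcdh10 no longer counted among the genes called.

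At 1% heptanal the ratios of Pcdh10 to control were 1.66, 0.913 and 1.43, so that 2 days lay above 1 and the other below. The log2 fold change was 0.37 (SE 0.18, 95% interval -0.04 to 0.77) with an adjusted p of 1 by the quasi-likelihood test of edgeR, blocked on postnatal day and adjusted over all 14930 genes tested. The control mice are shared with the comparison at 100% heptanal. No gene of the 14930 was called at 1% heptanal by edgeR (0%), 197 had a higher value with an unadjusted p under 0.05 (1.32%) and 290 a lower one (1.94%), while DESeq2 called 3 and the likelihood ratio test of edgeR called 14.

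**Figure D1:**
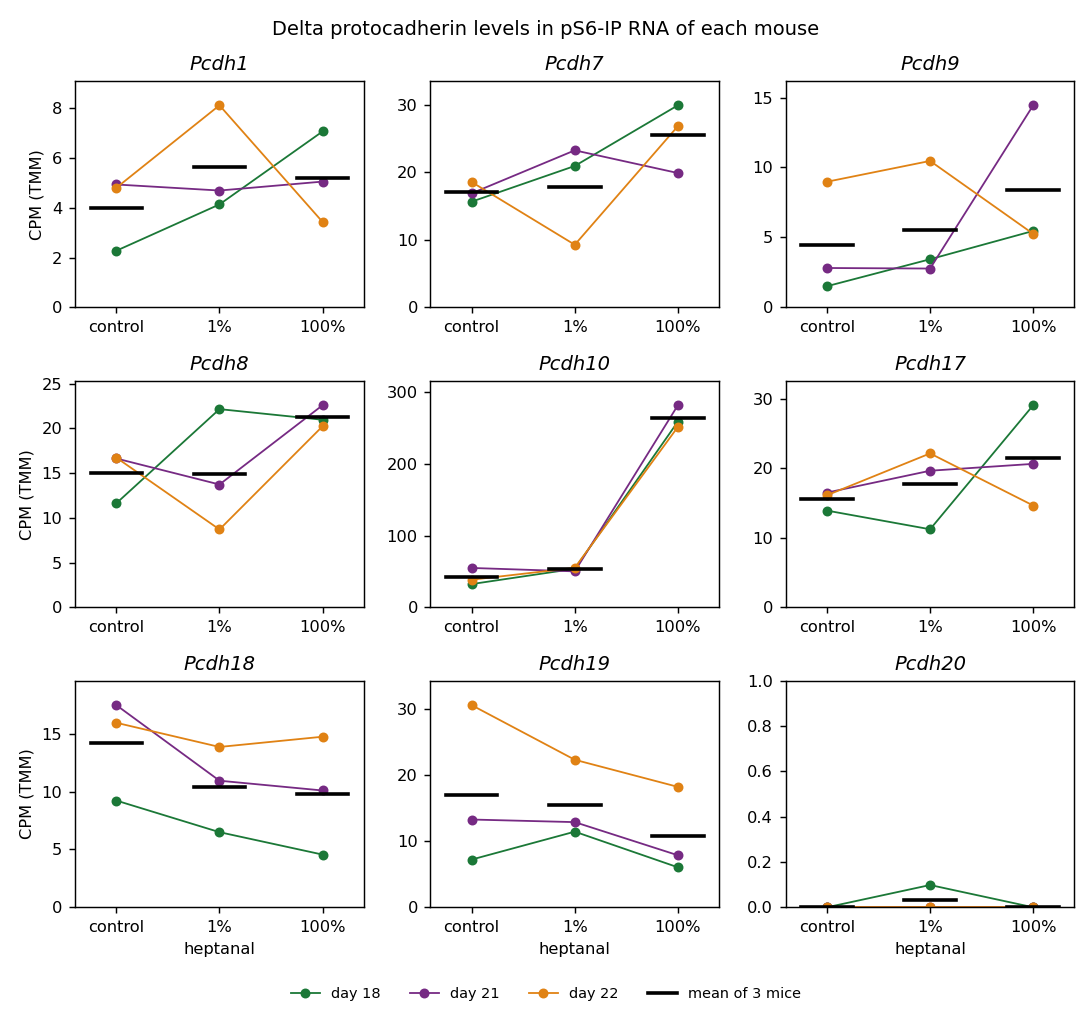
Level of each of the 9 delta protocadherins as CPM (vertical axis, a separate scale in each panel) in control, 1% and 100% heptanal mice (horizontal axis), with lines joining the mice of a postnatal day and black bars for the mean of 3 mice. Pcdh10 at 100% heptanal lies between 252 and 282 CPM in all 3 mice, and the highest level of any other member in any mouse is 30.5 CPM, for Pcdh19 in the control of day 22.

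At 100% heptanal, 48 of the 14930 genes tested (0.322%) were called against control at an adjusted p below 0.05, each of them higher. Pcdh10 was among them, but the rule had used that contrast for Pcdh10, so its own call adds nothing. Of the other 7 members tested, 0 were called by edgeR, 0 had an unadjusted p under 0.05 (6.63% of all genes did so with a higher and 3.79% with a lower value), and DESeq2 called 0. Their log2 fold changes ran from -0.63 to 1.27 with a median of 0.48, against a median of 0.00 over all genes tested. In 5 of the 7 the value was above 0 and in 2 below 0, where 49.8% of all genes were above 0. The 95% intervals of 6 of them lay wholly below the low end of that of Pcdh10, and the exception was Pcdh9. With Pcdh10 chosen on this contrast, that is a description and not a test of whether it differed alone.

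Separation of the groups by CPM was counted as well. The 100% heptanal mice lay wholly above the controls for Pcdh7 and Pcdh8, 2 of the 7 members tested besides Pcdh10, where 5.96% of all genes did so. Pcdh10 was separated as well, but it had been chosen for that contrast and is not counted. None of the members lay wholly below, where 3.54% of all genes did. In the comparison of 100% with 1% heptanal, 0 of these 7 were separated, where 4.74% of all genes were higher and 4.15% lower in this way. At 1% heptanal against control 0 members were separated, where 2.28% of all genes were higher and 1.64% lower.

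**Figure D2:**
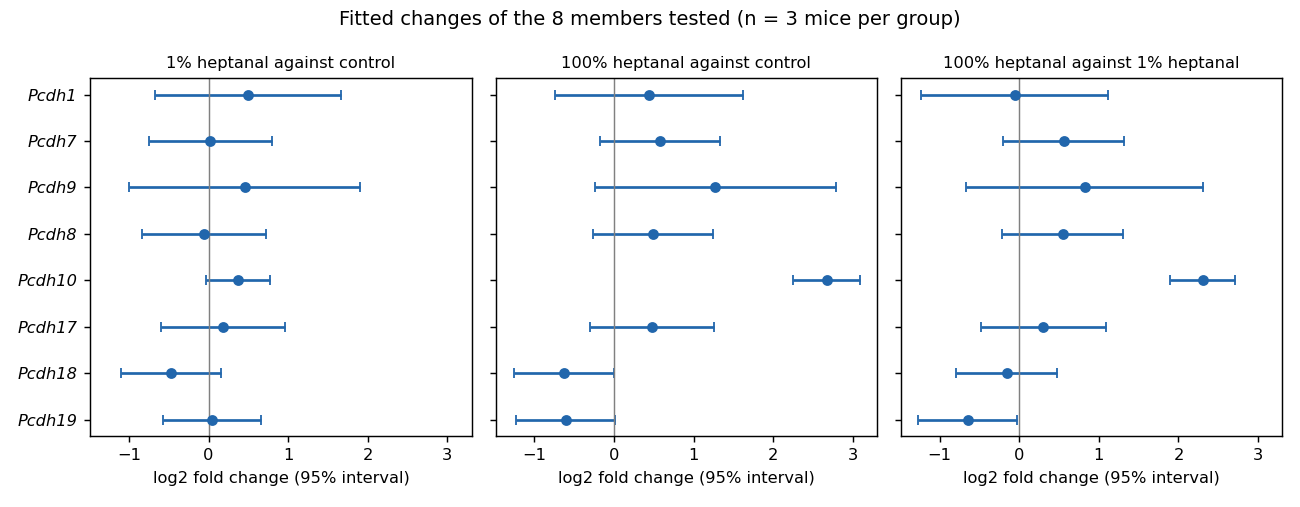
Fitted log2 fold changes (points) with 95% intervals (bars) of the 8 members tested in the 3 comparisons, from the edgeR fit with postnatal day as a block (n = 3 mice per group). Pcdh10 stands at 2.67 and 2.31 in the 2 comparisons that involve 100% heptanal. At 100% heptanal against control 6 of the other 7 intervals lie below its own, a description only, since Pcdh10 was chosen on that contrast.

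Pcdh8, known as arcadlin in the rat and induced by synaptic activity in hippocampal neurons, was higher in every 100% heptanal mouse than in any control but did not pass the test. It lies on chromosome 14 (79766775 to 79771312, minus strand). Its control levels were 11.6, 16.6 and 16.7 CPM on days 18, 21 and 22, the 1% mice had 22.1, 13.7 and 8.70, and the 100% mice had 21.0, 22.6 and 20.2. The 100% mice were close to each other, but the 1% mouse of day 18 reached the same level. The log2 fold change at 100% heptanal was 0.49 (SE 0.33, adjusted p = 0.666). Its interval of -0.27 to 1.25 contains 0 and 1 but not the value of Pcdh10, a gene chosen for being high in this contrast. At 1% heptanal it was -0.06 (SE 0.34).

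Pcdh17 (chromosome 14, 84443563 to 84539002, plus strand), which acts in axon extension and presynaptic assembly, had 13.9, 16.5 and 16.1 CPM in the control mice, 11.2, 19.6 and 22.1 in the 1% mice and 29.0, 20.6 and 14.6 in the 100% mice. The groups overlapped, and at day 22 the 100% heptanal mouse was below its control. At 100% heptanal its log2 fold change was 0.48 (SE 0.34, adjusted p = 0.683) and became -0.01 when the 100% heptanal mouse of day 18 was left out.

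Pcdh18, a binding partner of the Reelin pathway adaptor Dab1, and Pcdh19, an X-linked gene mutated in an epilepsy that mainly affects females, were the delta-2 members with values below 0. Pcdh18 lies on chromosome 3 (49743296 to 49757325, minus strand) and Pcdh19 on chromosome X (133582860 to 133688987, minus strand). Pcdh18 had 9.23, 17.5 and 15.95 CPM in the control mice, 6.50, 10.9 and 13.9 in the 1% mice and 4.56, 10.1 and 14.7 in the 100% mice. Its level was below control on all 3 days at both concentrations, with ratios of 0.494, 0.578 and 0.924 at 100% heptanal. Pcdh19 had 7.20, 13.2 and 30.5 CPM in the control mice, 11.4, 12.9 and 22.3 in the 1% mice and 6.04, 7.85 and 18.2 in the 100% mice. It too was below control on every day at 100% heptanal, with ratios of 0.838, 0.593 and 0.596, but not at 1% heptanal.

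Neither of these differences passed the test. The log2 fold change at 100% heptanal was -0.63 (SE 0.28, adjusted p = 0.484) for Pcdh18 and -0.61 (SE 0.27, adjusted p = 0.486) for Pcdh19, and both intervals reached 0.01. A level below control on all 3 days was seen in 18.1% of all genes. Against 1% heptanal, Pcdh19 stood at -0.65 (SE 0.27, adjusted p = 0.467) and was lower on all 3 days, while Pcdh18 stood at -0.16 (SE 0.28).

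Among the delta-1 members, Pcdh7 (chromosome 5, 57717967 to 58133230, plus strand), which guides retinal axons in the frog, had 15.7, 16.9 and 18.6 CPM in the control mice, 21.0, 23.3 and 9.29 in the 1% mice and 29.95, 19.9 and 26.9 in the 100% mice. Each 100% mouse was above each control, by 1.91, 1.18 and 1.45 times within days, while the 1% mice spanned both groups. At 100% heptanal its log2 fold change was 0.58 (SE 0.33, adjusted p = 0.599), with an interval of -0.18 to 1.33.

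Pcdh9 (chromosome 14, 93013410 to 93890679, minus strand), a gene of central neurons, had the largest fitted value after Pcdh10 and the widest spread. Its levels were 1.52, 2.82 and 8.98 CPM in the control mice, 3.44, 2.78 and 10.5 in the 1% mice and 5.47, 14.4 and 5.26 in the 100% mice. The high mice were those of day 22 in controls and at 1% heptanal, but that of day 21 at 100% heptanal, and the ratios to control were 3.60, 5.13 and 0.585. Its fitted log2 fold change of 1.27 (SE 0.67, adjusted p = 0.548) had an interval of -0.24 to 2.78, which contains the value of Pcdh10. It moved to 0.41 without the 100% heptanal mouse of day 21 and to 2.05 without that of day 22, so a rise of the size seen for Pcdh10 was neither shown nor out of reach at these counts. Behind these levels stood 12 to 58 counts in the control mice and 46 to 103 in the 100% mice.

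Pcdh1, best known from airway epithelium, was the least abundant of the members tested, with 18 to 35 counts in controls. Its levels were 2.27, 4.93 and 4.80 CPM in the control mice, 4.13, 4.69 and 8.11 in the 1% mice and 7.06, 5.05 and 3.43 in the 100% mice. The ratios of 100% heptanal to control were 3.10, 1.02 and 0.714, and the log2 fold change of 0.44 (SE 0.52, adjusted p = 0.831) became -0.12 without the 100% heptanal mouse of day 18.

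Pcdh20 (chromosome 14, 88464743 to 88471396, minus strand), which has been described in newly formed OSNs, was not tested. It had 1 count in the 1% heptanal mouse of day 18 and 0 in the other 8 mice. A count of 0 allows a level of up to 0.309 to 0.552 CPM, as given by 3 counts in the largest and the smallest library, and this limit covers counting error only.

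At 1% heptanal the log2 fold changes of the 8 members ran from -0.47 to 0.50, with 6 above 0 and 2 below. None of them had an unadjusted p under 0.05 by edgeR, and DESeq2 called 0 of them. No member was above control on all 3 days (11.5% of all genes were), and Pcdh18 alone was below on all 3 (11.7%). Comparing 100% with 1% heptanal, 12 genes were called (0.0804%). Pcdh10 was among them, which is a description only, since the 100% mice are those it was chosen on. The other 7 members ran from -0.65 to 0.82 with 0 called. Of these 7, Pcdh19 alone had an unadjusted p under 0.05, and it was lower (6.74% of all genes were higher and 3.68% lower by that measure).

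The summed level of the 9 members averaged 129 ± 30.7 CPM in the control mice, 141 ± 8.39 in the 1% mice and 367 ± 14.2 in the 100% mice (SD, n = 3). The other 8 members together had 87.2 ± 25.1, 87.5 ± 7.46 and 102 ± 1.53 CPM, so their sum at 100% heptanal lay within the range of the control mice. The share of Pcdh10 in the summed count was 32.9% ± 6.50 in the control mice, 37.8% ± 2.14 in the 1% mice and 72.0% ± 1.47 in the 100% mice.

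**Figure D3:**
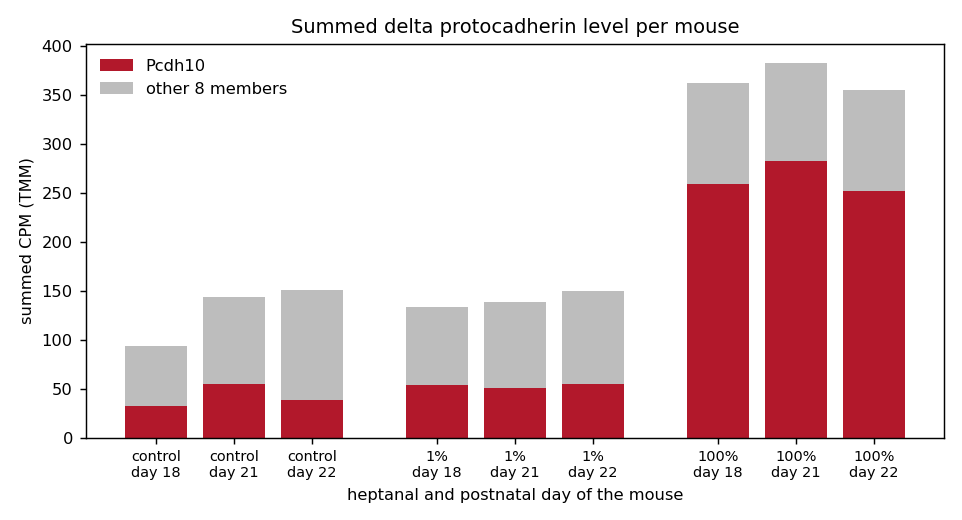
Summed CPM of the 9 members (vertical axis) in each mouse, split into Pcdh10 (red) and the other 8 members (grey). Pcdh10 makes up 72.0% of the sum on average at 100% heptanal and 32.9% in controls, and the grey part of the 100% heptanal bars averages 102 CPM against 87.2 CPM in controls.

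To compare genes with each other, CPM were divided by the length of annotated exon (GENCODE M21). In controls the order of these levels was Pcdh8 at 3.30 CPM per kb, Pcdh18 at 2.65, Pcdh10 at 2.64 ± 0.73, Pcdh19 at 1.62, Pcdh7 at 1.61, Pcdh17 at 1.19, Pcdh9 at 0.654 and Pcdh1 at 0.455, with Pcdh20 at 0. Neighbours in this order overlapped between mice except Pcdh7 with Pcdh17 and Pcdh1 with Pcdh20. At 1% heptanal Pcdh10 led with 3.34 ± 0.16 CPM per kb, level with Pcdh8 at 3.27. At 100% heptanal Pcdh10 stood at 16.6 ± 0.99 CPM per kb, above Pcdh8 at 4.68 and Pcdh7 at 2.41 with no overlap between these 3 genes. The order depends on the length used, since per kb of coding sequence Pcdh10 led in controls as well, with 13.2 CPM per kb against 4.95 for Pcdh19. The cDNA was primed from the poly(A) tail, so neither length describes exactly where the reads came from.

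**Figure D4:**
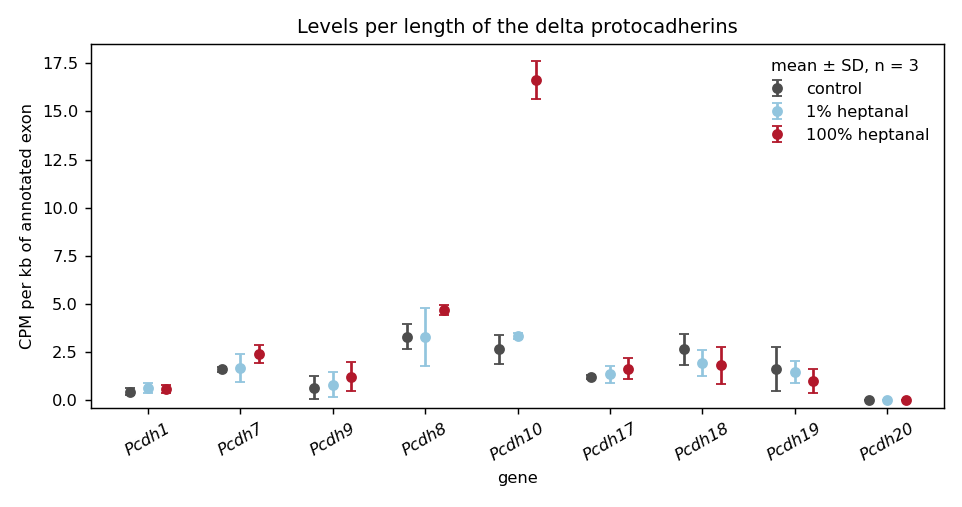
Mean level per length (CPM per kb of annotated exon, vertical axis; points with SD bars, n = 3 mice) of each member in control, 1% and 100% heptanal mice. Pcdh10 stands at 2.64 CPM per kb in controls, where its range overlaps that of Pcdh18, and at 16.6 at 100% heptanal, above every other member.

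The members also differed in how much of their variance lay between postnatal days, which differ in litter too, and for day 22 in the letters of the sample titles. Of the variance of log2 CPM over the 9 mice, 97.5% lay between groups and 0.812% between days for Pcdh10. The reverse held for Pcdh19, with 77.6% between days and 15.5% between groups, and for Pcdh18, with 72.5% and 20.1%. Mean Pcdh19 was 8.22 CPM in the 3 mice of day 18, 11.3 on day 21 and 23.6 on day 22, and mean Pcdh18 was 6.76, 12.8 and 14.9 CPM. For Pcdh9 the day means were 3.48, 6.68 and 8.24 CPM. These are descriptions with 1 litter per day. Pcdh10 was chosen for a difference between these same groups, which favours a large share between groups. Its contrast with Pcdh18 and Pcdh19 in this respect is therefore not a test.

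Replicate spread against counting error gave another view of the same values. For Pcdh10 at 1% heptanal the coefficient of variation between mice was 4.83%, close to the 4.98% that counting alone gives, and at 100% heptanal it was 5.96% against 2.15%. In controls it was 27.7% against 5.79%. For Pcdh9 in controls it was 89.8% against 18.3%, several times what counting alone gives.

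The library kit does not keep strand, so reads of the antisense transcript 1700027H10Rik, which overlaps Pcdh10 from 45416584 to 45439310, cannot be told apart from those of Pcdh10 where they overlap. That transcript had 18 counts of its own over all 9 mice, and the divergent transcript 2610316D01Rik, which starts within the Pcdh10 promoter window, had 15. The antisense neighbour of Pcdh7, 4932441J04Rik, had 21.

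Markers of mature OSNs were also higher at 100% heptanal, and their part in the Pcdh10 value beyond the ratios given here was not tested. Omp, the olfactory marker protein, had 3298, 6512 and 4460 CPM in the control mice and 8711, 11982 and 9234 in the 100% mice, with ratios of 2.64, 1.84 and 2.07 within days, and its log2 fold change of 1.11 (SE 0.16) had an adjusted p of 0.0311. All 9 mature OSN markers in the tables were above 0, where 49.8% of all genes were, with a median log2 fold change of 0.78. An unadjusted p under 0.05 was found in 6, where 6.63% of all genes were higher and 3.79% lower by that measure. Of the 9, 3 (Omp, Gng13 and Stoml3) were called, where 0.322% of all genes were. The summed level of the 9 markers was 4926 to 10104 CPM in the control mice, 7254 to 9755 in the 1% mice and 12144 to 17228 in the 100% mice. In these pS6-IP samples more OSNs, more RNA per OSN and a larger share of OSN RNA held by the antibody cannot be told apart.

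For every 1000 Omp counts there were 9.85, 8.44 and 8.65 Pcdh10 counts in the control mice, 11.2, 7.61 and 9.64 in the 1% mice, and 29.7, 23.5 and 27.3 in the 100% mice. The 100% mice stood apart from the other 6, while the control and 1% mice overlapped. The libraries were also scaled to the summed counts of 5 mature OSN markers, which were Omp, Adcy3, Ano2, Cnga2 and Gnal. Omp makes up most of that sum, with 4460 of 5870 CPM in the control mouse of day 22. This scaling left a Pcdh10 log2 fold change of 1.65 at 100% heptanal, with the median of all genes then at -1.04. Under that scaling the values of Pcdh1, Pcdh7, Pcdh8 and Pcdh17 went from above to below 0, at -0.57, -0.46, -0.52 and -0.57, each above the median of all genes. Pcdh18 and Pcdh19 went to -1.65 and -1.62 and were called lower, as were 9694 genes in all.

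No marker of immature OSNs, globose or horizontal basal cells, sustentacular cells, microvillous cells or Bowman glands was called at 100% heptanal by edgeR. Nor was any marker of ensheathing glia, endothelium, fibroblasts, respiratory ciliated cells, immune cells or olfactory bulb neurons. Of these 81 genes tested 11 had an unadjusted p under 0.05, where 6.63% of all genes did so with a higher and 3.79% with a lower value. DESeq2 called 2, both of sustentacular cells, and the likelihood ratio test of edgeR called 1. The medians of these lists ran from -0.33 for globose basal cells and for fibroblasts to 0.54 for sustentacular cells. The summed sustentacular markers were 6527 to 7954 CPM in the control mice and 7846 to 10767 in the 100% mice, those of globose basal cells 149 to 233 and 138 to 151, and those of ensheathing glia 242 to 344 and 208 to 239. The share of these cells in the delta protocadherin values was not tested.

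The rest of the protocadherin and cadherin families gave no call at 100% heptanal. Of 48 clustered protocadherins tested, 22 were above 0 and 26 below, with a median of -0.03, 0 were called by edgeR or by DESeq2, and 1 had an unadjusted p under 0.05. By that unadjusted measure 6.63% of all genes were higher and 3.79% lower at 100% heptanal, which applies to the lists that follow as well. The gamma genes, such as Pcdhgc3 at 76.7 CPM and Pcdhga1 at 72.6 CPM in controls, share their constant exons and so their reads. The alpha genes likewise share theirs. All alpha genes tested were above 0 and all gamma genes below, so the split and median given here do not rest on 48 separate measurements. Of 3 other non-clustered protocadherins tested, 0 were called and 0 had an unadjusted p under 0.05, and the most abundant, Cdhr1, a cadherin of photoreceptors and mitral cells, stood at 0.46 (SE 0.24, adjusted p = 0.555). Of 9 classical and type II cadherins, 0 were called and 1 had an unadjusted p under 0.05, with Cdh2, N-cadherin, at 0.25 (SE 0.21), Cdh11 at -0.43 (SE 0.21) and Cdh1, E-cadherin, at 0.12 (SE 0.39). Of 7 large cadherins of the Fat, Dachsous and Celsr type 0 were called and 0 had an unadjusted p under 0.05, and their median was -0.19.

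The partners of the delta protocadherins were likewise without a call. The WAVE complex, which several delta-2 proteins recruit, had 10 subunits tested, 5 above 0 and 5 below, with a median of 0.01, 0 called by edgeR or DESeq2 and 1 with an unadjusted p under 0.05. Brk1 stood at 0.11 (SE 0.16), Cyfip2 at 0.04 (SE 0.29) and Nckap1, the subunit bound by delta-2 tails, at 0.52 (SE 0.56). The 7 other partners tested, among them the small GTPase Rac1 at -0.07 (SE 0.14) and the phosphatase Ppp1ca at 0.00 (SE 0.13), had a median of -0.06 and 0 calls, with 0 at an unadjusted p under 0.05.

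The genes around Pcdh10 in synapse removal, which are the MEF2 factors, Fmr1, Mdm2, Dlg4, Ube3a and Eef1a1, were above 0 in 8 of 9, with a median of 0.12, 0 called by edgeR or DESeq2 and 1 with an unadjusted p under 0.05. Mef2b stood at 0.53 (SE 0.18, adjusted p = 0.354), the ubiquitin ligase Mdm2 at 0.01 (SE 0.15) and Eef1a1 at 0.03 (SE 0.13).

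Among 20 olfactory axon sorting molecules, Kirrel2 was the 1 called. Kirrel2 is an adhesion molecule whose level in OSNs follows activity and which sorts their axons into glomeruli. It had 117, 156 and 157 CPM in the control mice, 136, 166 and 192 in the 1% mice and 244, 342 and 391 in the 100% mice, with ratios of 2.09, 2.19 and 2.49 within days. Its log2 fold change was 1.17 (SE 0.12, adjusted p = 0.00775), close to that of Omp. Of the 20, 14 were above 0 at 100% heptanal, where 49.8% of all genes were, and 4 had an unadjusted p under 0.05. At 1% heptanal 0 were called, 1 had an unadjusted p under 0.05 and DESeq2 called 0. For this list and the next, 1.32% of all genes were higher and 1.94% lower at 1% heptanal by the unadjusted measure.

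Of 19 activity-induced genes tested, 18 were above 0 at 100% heptanal with a median of 1.10, where 49.8% of all genes were above 0. An unadjusted p under 0.05 was found in 14, and 5 were called, where 0.322% of all genes were called. The called genes were the transcription factors Fosb (4.98, SE 0.32), Egr1 (2.98, SE 0.21), Fos (2.72, SE 0.26) and Nr4a1 (2.18, SE 0.22) and the antiproliferative gene Btg2 (1.76, SE 0.18). The log2 fold change of Pcdh10, at 2.67, lay among these values, next to that of Fos. At 1% heptanal 0 of the 19 were called by the quasi-likelihood test or by DESeq2, 1 by the likelihood ratio test of edgeR, and 1 had an unadjusted p under 0.05.

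The 5 genes whose level followed that of Pcdh10 most closely over the 9 mice, by Pearson correlation of log2 CPM centred on each day, were Dyrk4 (r = 0.996), Dusp14 (r = 0.991), Tspan7 (r = 0.990), Tsc22d1 (r = 0.990) and Kirrel2 (r = 0.990). The points of these correlations share libraries, and the pattern they share is mainly the step at 100% heptanal. The ratios of 100% heptanal to control were 1.54 to 1.73 for Dyrk4 and 2.88 to 3.12 for Tsc22d1, below those of Pcdh10. Dusp14, Tsc22d1 and Kirrel2 were called at 100% heptanal, and Dyrk4 (adjusted p = 0.0774) and Tspan7 (adjusted p = 0.0524) were not. The other members correlated with Pcdh10 at 0.65 (Pcdh8), 0.60 (Pcdh7), 0.57 (Pcdh9), 0.45 (Pcdh17), 0.25 (Pcdh1), -0.67 (Pcdh18) and -0.78 (Pcdh19). These values too rest mainly on the step of Pcdh10 at 100% heptanal, for which it was chosen. They largely restate the fold changes given above and are not separate evidence that members vary together.

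**Figure D5:**
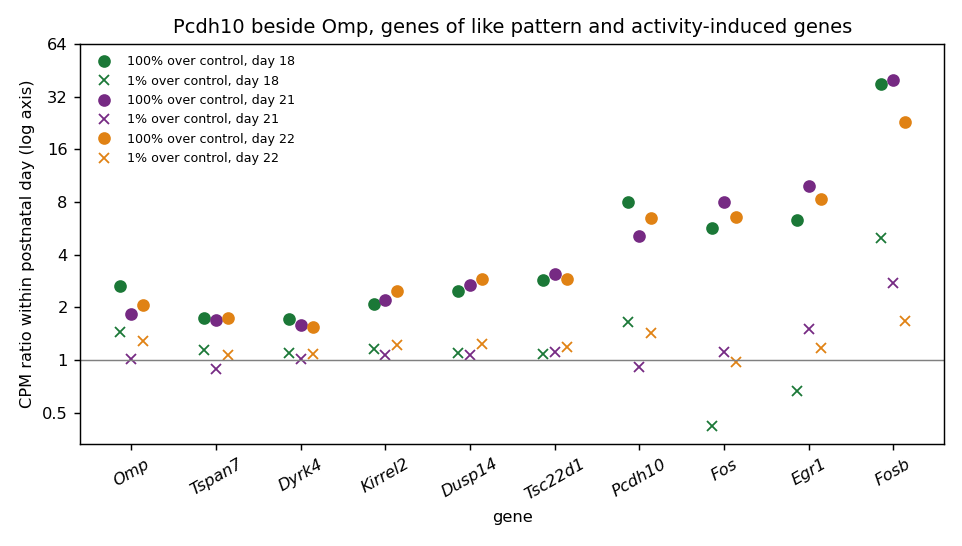
Ratio of CPM to the control mouse of the same postnatal day (vertical axis, log scale) at 100% heptanal (filled circles) and 1% heptanal (crosses) for Pcdh10, Omp, the 5 genes most like Pcdh10 and 3 activity-induced genes. Pcdh10 at 5.13 to 7.97 lies above Omp at 1.84 to 2.64 and below Fosb at 23.0 to 39.9, and overlaps Fos at 5.70 to 7.97.

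For the other members, the closest genes by log2 CPM without centring were Dpys (r = 0.947) and Phactr1 (0.918) for Pcdh1, Olfr685 (0.936) and 6330403K07Rik (0.935) for Pcdh7, and Setd4 (0.955) and Rgma (0.947) for Pcdh9. In the delta-2 subgroup they were Olfr745 (0.917) and 3930402G23Rik (0.913) for Pcdh8, Fam126a (0.970) and Tst (0.957) for Pcdh17, Pwp2 (0.960) and Tep1 (0.955) for Pcdh18, and Gab1 (0.978) and Sirt6 (0.975) for Pcdh19. No gene was among the closest of more than 1 member, and with 9 mice and 14930 genes such values describe these libraries only.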

How the data were processed

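Per the labels and the methods of the study, mRNA bound to pS6 was immunoprecipitated from the OE, reverse-transcribed from the poly(A) tail, amplified without molecular identifiers and prepared with a kit that does not keep strand. The authors used Bowtie for alignment to the mm10 build and BEDTools for gene counts (versions not given in the sources used here), and shared reads with several matches out among genes. The deposited tables have no header, so a column of counts was taken from its values as uniquely mapped reads, and the last column as the deposited estimated counts. The other 18 value columns of each table were not used.

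Estimated counts were rounded and fitted with R 4.3.3 and edgeR 4.0.16 (glmQLFit and glmQLFTest after TMM scaling and filterByExpr with minimum counts of 10 and 15), with postnatal day as a block and Benjamini-Hochberg adjustment over 14930 genes at a threshold of 0.05. Tables were made with Python 3.11.15 and pandas 2.3.3. The fit was also run on counts simulated from its own estimates of spread, with 200 changed genes. The outcome of that run is not given here, and no result rests on it. The members, gene lists and alternatives were chosen with earlier results of these data known. Apart from members, genes were named by rule, as the called genes of a list with the largest changes, or where none was called its most abundant genes, and the genes closest in pattern to a member. The replicate number marks a postnatal day in the labels and a litter in the methods, and the 9 pairs of same-day mice deviated together from their group means (r from 0.155 to 0.730). Depth was 5438494 to 9707592 estimated counts per mouse, and a count of 3 served as the limit for a gene with no count. Alternatives were the fit without the block, other scalings, filters, tools and counts, the 2 groups alone, and leaving out each mouse.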

Additional observations from a re-analysis of the deposited data

How the results depend on the processing

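No setting other than the scaling by 5 mature OSN markers called a member besides Pcdh10. That scaling called 2 at 100% heptanal against control and 2 against 1% heptanal (Pcdh18 at -0.94 and Pcdh19 at -1.43), gave Pcdh10 a log2 fold change of 1.65 and 1.52 in these comparisons, and called 9742 and 6691 genes in all. It also turned Pcdh1 (-0.57), Pcdh7 (-0.46), Pcdh8 (-0.52) and Pcdh17 (-0.57) below 0 at 100% heptanal against control, Pcdh7 (-0.21), Pcdh17 (-0.050) and Pcdh19 (-0.19) at 1% heptanal, and Pcdh7 (-0.24), Pcdh8 (-0.23) and Pcdh17 (-0.52) at 100% against 1%. By construction it shifts all genes against the OSN markers. In all other settings the Pcdh10 value in these 2 comparisons kept its direction and moved by less than the SD of its within-day ratios.

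With no replicate block, the Pcdh10 log2 fold change was 2.65 at 100% heptanal, 2 genes were called in place of 48, 2 in place of 12 against 1% heptanal, and Pcdh19 turned to -0.13 at 1% heptanal. The block changed the call of no member.

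The number of genes called at 100% heptanal against control was 28 with library totals, 266 with DESeq2, 297 with the likelihood ratio test of edgeR, 76 with no filter and 165 with only the 2 groups compared, where at 1% heptanal it was 3 with DESeq2, 14 with the likelihood ratio test and 1 with no filter, and at 100% against 1% it was 211, 226, 25 with no filter and 2 with only the 2 groups compared. The last setting also turned Pcdh7 to -0.020 at 1% heptanal. The cause of these changes was not tested.

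Leaving out 1 mouse gave 1 to 65 calls at 100% heptanal against control (1, 3 and 6 without the control mice of days 22, 21 and 18, and 16, 9 and 13 without the 100% heptanal mice of these days), 0 at 1% heptanal, and 3 to 33 at 100% against 1%, with 33 and 4 without the 1% mice of days 18 and 21, and 3 and 6 without the 100% mice of days 21 and 18. At 100% heptanal against control Pcdh10 ran from 2.51 to 2.90 and was not called without the control mouse of day 22 (2.63), Pcdh1 ran from -0.12 to 0.89, and Pcdh17 ran from -0.0088 to 0.81. At 1% heptanal Pcdh7 ran from -0.32 to 0.42, Pcdh8 from -0.52 to 0.29, Pcdh17 from -0.15 to 0.52 and Pcdh19 from -0.18 to 0.26, and at 100% against 1% Pcdh1 ran from -0.66 to 0.41, Pcdh17 from -0.15 to 0.65 and Pcdh18 from -0.38 to 0.0080. None of these values of members other than Pcdh10 passed the test.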
